A study of Sus scrofa with 12 samples.

Results

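Genes of cholesterol synthesis and sterol sensing, 8 in number, were followed in pig skeletal muscle: the enzyme genes HMGCS1, IDI1, FDFT1, SQLE, LSS and DHCR7 and the sensing genes SREBF2 and INSIG1. They were chosen by name, as the 8 rows, of 25880 genes listed in the count table, whose Ensembl identifier pairs with one of these symbols. RNA was sequenced from the Semimembranosus, a muscle of the ham, of 12 Italian Large White pigs: 6 with a high and 6 with a low content of intramuscular fat (IMF), the fat deposited within the muscle. Both groups received the same diet and no treatment, had been picked from the extremes of a performance-tested population so as to share no close relatives, and were each labelled as 3 gilts (young females) and 3 barrows (castrated males), aged 234 to 244 days in the high IMF group (pigs 1 to 6) and 229 to 249 days in the low IMF group (pigs 7 to 12). They had been slaughtered over several days, and libraries were run in pairs on a sequencing lane; which pigs shared a day or a lane was not analysed here.

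Cells make cholesterol from acetyl-CoA along the mevalonate pathway, in which HMGCS1 acts early, IDI1 prepares the isoprene units, FDFT1 joins farnesyl units into squalene and so commits them to sterols, SQLE and LSS turn squalene into the first sterol ring, and DHCR7 acts in the last steps. The pathway is governed by the transcription factor SREBP-2, the product of SREBF2, which waits in the endoplasmic reticulum bound to its escort SCAP: INSIG1 holds the pair there when sterols are plentiful, and when they are scarce the pair moves to the Golgi, where proteases free the active part of SREBP-2 to switch on synthesis and uptake genes. In muscle the same pathway also feeds protein prenylation, dolichol and ubiquinone.

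The gene counts summed to between 131048805 and 178013997 per pig, and 14262 genes passed the filter on low counts. In 6 pigs the counts of 2 Y chromosome genes, EIF1AY and KDM5D, went against the labelled sex: pigs 3 and 5 of the high IMF group and pigs 7, 8, 9 and 10 of the low IMF group. These counts summed to 0 to 6 in 6 pigs and 3734 to 5601 in the other 6, and whether a sex label or the identity of a library was at fault was not tested, so the group comparisons are also given without these 6 pigs. The skeletal muscle markers ACTA1 and CKM were abundant in every pig, at 14492 or more and 7049.7 or more counts scaled to a common depth (CPM, normalised by the trimmed mean of M-values, TMM).

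The stretch before the start of a gene is where SREBP-2 acts, so the 250 bases upstream of the RefSeq transcript start were searched, on both strands, for the core letters of a sterol regulatory element, TCACNCCA. This core stood in 2.81% of 19545 upstream windows of this length and in those of 2 of the 7 genes with a RefSeq entry, HMGCS1 and SREBF2 itself. In HMGCS1 it lay 246 to 239 bases before the start, and in SREBF2 93 to 86 bases before it. The start was that of a curated transcript where RefSeq has one. For HMGCS1 this start lay inside the gene's span, which ends at base 27957261, so its window runs in part over the gene. The window of INSIG1 held no such core, but held the palindromic E-box CACGTG, another sequence that SREBPs are known to bind, which stood in 6.36% of all windows; none of the other 6 windows held it. The 3 windows with either match are shown, and they belong to the regulator, to a target enzyme and to the sensor of one feedback circuit. Those of FDFT1, SQLE, LSS and DHCR7 held neither and are not shown. The matches are descriptions of letters in RefSeq (Sscrofa11.1), capitals mark the TCACNCCA or CACGTG match, and each sequence is read 5′ to 3′ on the strand of its gene, the minus strand in each case. HMGCS1 is at chr16:27957197-27957446, SREBF2 at chr5:6784725-6784974 and INSIG1 at chr18:2898759-2899008.
HMGCS1: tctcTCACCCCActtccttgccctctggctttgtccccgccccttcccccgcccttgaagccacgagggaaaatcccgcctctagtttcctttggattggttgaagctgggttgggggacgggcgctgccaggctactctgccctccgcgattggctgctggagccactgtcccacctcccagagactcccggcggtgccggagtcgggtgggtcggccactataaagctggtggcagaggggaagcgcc
SREBF2: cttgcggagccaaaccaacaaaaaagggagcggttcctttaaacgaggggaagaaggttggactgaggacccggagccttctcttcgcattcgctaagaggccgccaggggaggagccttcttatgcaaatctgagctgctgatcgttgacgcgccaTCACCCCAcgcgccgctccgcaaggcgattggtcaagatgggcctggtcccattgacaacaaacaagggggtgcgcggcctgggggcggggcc
INSIG1: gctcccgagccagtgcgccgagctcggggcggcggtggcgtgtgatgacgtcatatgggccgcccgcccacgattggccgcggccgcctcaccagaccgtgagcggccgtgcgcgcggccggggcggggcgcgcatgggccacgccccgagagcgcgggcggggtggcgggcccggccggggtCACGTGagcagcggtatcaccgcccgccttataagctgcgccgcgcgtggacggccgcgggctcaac

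Cofactor letters were more widespread. The NF-Y box CCAAT stood in 31.6% of all windows and in 6 of the 7, all but that of SQLE, and the Sp1 box GGGCGG in 46.4% of all windows and in all 7. The SQLE window, chr4:14699714-14699963, lay wholly inside the gene's span of chr4:14669789-14700152. Its letters, and those it lacks, are therefore not those of the stretch before the gene.

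LSS, the gene of lanosterol synthase (ENSSSCG00000021418), had 0 counts in all 12 pigs. A count of 0 allows up to 3 counts, or at most 0.0229 CPM in the library with the fewest counts. The gene lies on an unplaced scaffold of Sscrofa11.1, at bases 519582 to 554042, and the other 7 named genes of that scaffold with an identifier in the count table, among them COL6A2, a collagen gene, and PRMT2, were also at 0 in every pig. The LSS zeros were therefore not read as a level, and 7 of the 8 genes were tested.

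Per kilobase of exon, FDFT1 was the most abundant and DHCR7 the least. The mean over the 12 pigs was 31.0 ± 6.68 CPM per kb for FDFT1, 6.24 ± 1.11 for HMGCS1, 5.44 ± 1.82 for INSIG1, 1.93 ± 0.470 for SREBF2, 0.776 ± 0.219 for SQLE and 0.277 ± 0.0875 for DHCR7 (SD, n = 12). FDFT1 was above HMGCS1 in all 12 pigs with no overlap of their ranges, and so was SREBF2 above SQLE. HMGCS1 and INSIG1 could not be ranked, HMGCS1 being the higher of the pair in 6 of 12 pigs. INSIG1 exceeded SREBF2, and SQLE exceeded DHCR7, in all 12 pigs, although the ranges met. IDI1 has no entry under that symbol in RefSeq and was given no level per length.

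**Figure D1:**
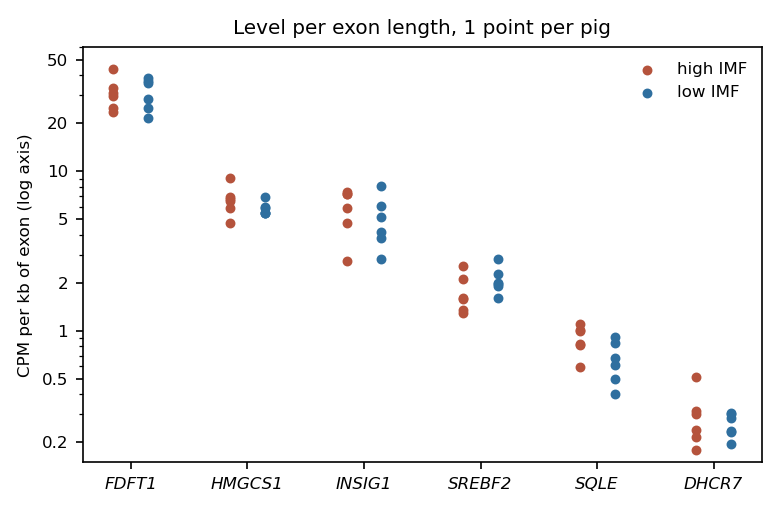
CPM per kilobase of exon (log axis) for the 6 genes with a RefSeq length, 1 point per pig, high IMF in red and low IMF in blue. FDFT1 stands alone at the top, HMGCS1 and INSIG1 share a range, and DHCR7 is lowest, with a mean of 0.277.

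The first question was whether the pathway differed between pigs with high and low IMF. None of the 7 genes was called different between the groups by edgeR's quasi-likelihood test at an adjusted p of 0.05 with an absolute log2 fold change of 0.58, where 0% of the 14262 genes tested were called. At an unadjusted p of 0.05, 0 of 7 passed, against 10.4% of all genes tested. DESeq2's Wald test on the same genes called 58 genes, or 0.407%, and 0 of the 7, and 11.9% of all genes but 0 of the 7 had an unadjusted p of 0.05 or less. The log2 fold change (low over high) was below 0 in 6 of the 7, beside 51.6% of all genes tested, with a median of -0.18 against -0.01 over all genes tested. Of the 6, IDI1 (-0.0040) and FDFT1 (-0.0057) were close to 0. No gene had groups that did not overlap, which was the case for 0.659% of all genes tested.

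HMGCS1 (ENSSSCG00000016872, chr16:27936225-27957261, minus strand) encodes the cytosolic synthase that makes HMG-CoA, an early intermediate of the mevalonate pathway. In pigs 1 to 6, with high IMF, it stood at 34.0, 24.9, 36.2, 35.0, 47.8 and 31.1 CPM, and in pigs 7 to 12, with low IMF, at 31.5, 28.6, 36.2, 28.8, 30.7 and 28.9 CPM. Both the lowest and the highest value were those of high IMF pigs, pig 2 and pig 5, and the low IMF pigs lay between them within a narrow band. The means were 34.8 ± 7.52 and 30.8 ± 2.89 CPM (SD, n = 6 each), a log2 fold change of -0.18 (SE 0.13, 95% interval -0.46 to 0.11, adjusted p = 0.661 by edgeR).

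IDI1 (ENSSSCG00000029066), the isomerase of isopentenyl diphosphate, was the gene with the closest group means. It measured 43.9, 55.0, 48.1, 58.8, 42.4 and 35.7 CPM in pigs 1 to 6 and 36.1, 61.4, 47.4, 46.1, 61.0 and 31.0 CPM in pigs 7 to 12. Each group held high and low pigs, and the low IMF group held both the lowest pig (12) and the highest (8). Group means were 47.3 ± 8.52 and 47.2 ± 12.5 CPM, and the log2 fold change was -0.00 (SE 0.18, 95% interval -0.38 to 0.38, adjusted p = 0.997 by edgeR).

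FDFT1 (ENSSSCG00000026044, chr14:14976259-15010701, plus strand), squalene synthase, gave the highest count of the set. Its values were 73.7, 97.1, 136, 104, 77.7 and 93.0 CPM in pigs 1 to 6 and 114, 112, 77.8, 88.8, 119 and 67.8 CPM in pigs 7 to 12. Pig 3 was above all others and pig 12 below, with the rest of both groups intermixed. The means of 97.0 ± 22.3 and 96.6 ± 21.4 CPM gave a log2 fold change of -0.01 (SE 0.17, 95% interval -0.38 to 0.37, adjusted p = 0.995 by edgeR).

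SQLE (ENSSSCG00000005970, chr4:14669789-14700152, minus strand), which encodes the squalene epoxidase that inserts the first oxygen of the sterol, showed the widest separation of means. High IMF pigs 1 to 6 stood at 3.01, 1.78, 2.46, 2.42, 3.29 and 2.99 CPM, and low IMF pigs 7 to 12 at 1.20, 2.50, 2.73, 1.83, 1.49 and 2.00 CPM. In all, 3 high IMF pigs (1, 5 and 6) were above every low IMF pig and 2 low IMF pigs (7 and 11) below every high IMF pig, while the other 7 overlapped. The means were 2.66 ± 0.547 and 1.96 ± 0.584 CPM, with a log2 fold change of -0.44 (SE 0.21, 95% interval -0.90 to 0.02). The difference did not pass the test: p was 0.0581 before and 0.492 after adjustment by edgeR, and 0.0671 in a two-sided exact permutation test over all arrangements of the pigs. SQLE had 130 to 471 counts per pig, so counting error was small beside the spread between pigs.

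DHCR7 (ENSSSCG00000021181, chr2:2377352-2391846, plus strand), the reductase that ends one branch of cholesterol synthesis, was the lowest gene of the set, with 55 to 182 counts per pig. In the high IMF group the lowest value was 0.436, the median 0.655 and the highest 1.24 CPM, and in the low IMF group these were 0.472, 0.632 and 0.740 CPM. Pig 4 stood above all others, with a gap of 0.60 of its group's range that fell short of Dixon's critical value for 6 samples, and the low IMF pigs fell within the range of the high IMF pigs. The means of 0.712 ± 0.287 and 0.627 ± 0.108 CPM differed by a log2 fold change of -0.18 (SE 0.26, 95% interval -0.74 to 0.37, adjusted p = 0.841 by edgeR). The sign rested on pig 4: without it the log2 fold change was 0.05.

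Among the sensing genes, SREBF2 (ENSSSCG00000026092, chr5:6719484-6784724, minus strand) was the only one of the 7 with the higher mean in low IMF pigs. Pigs 1 to 6 measured 15.02, 12.4, 9.34, 9.42, 7.59 and 7.90 CPM, and pigs 7 to 12 measured 11.6, 13.3, 16.6, 11.5, 9.44 and 11.2 CPM. High IMF pigs 3, 4, 5 and 6 were below every low IMF pig, but pigs 1 and 2 of the same group were among the 4 highest of all. The means of 10.3 ± 2.89 and 12.3 ± 2.44 CPM gave a log2 fold change of 0.25 (SE 0.18, 95% interval -0.14 to 0.64, adjusted p = 0.651 by edgeR).

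INSIG1 (ENSSSCG00000016420, chr18:2885494-2898758, minus strand), itself a textbook target of SREBP, varied most between pigs for its level, with a coefficient of variation of 33.5% and a 2.95-fold span. It stood at 20.6, 13.6, 20.6, 21.2, 7.76 and 16.7 CPM in pigs 1 to 6 and at 10.9, 11.8, 22.9, 17.4, 14.8 and 8.07 CPM in pigs 7 to 12. The lowest pig, 5, had high IMF and the highest, 9, had low IMF, so either group spanned nearly the whole range. The means were 16.7 ± 5.28 and 14.3 ± 5.28 CPM and the log2 fold change was -0.22 (SE 0.27, 95% interval -0.80 to 0.36, adjusted p = 0.807 by edgeR).

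**Figure D2:**
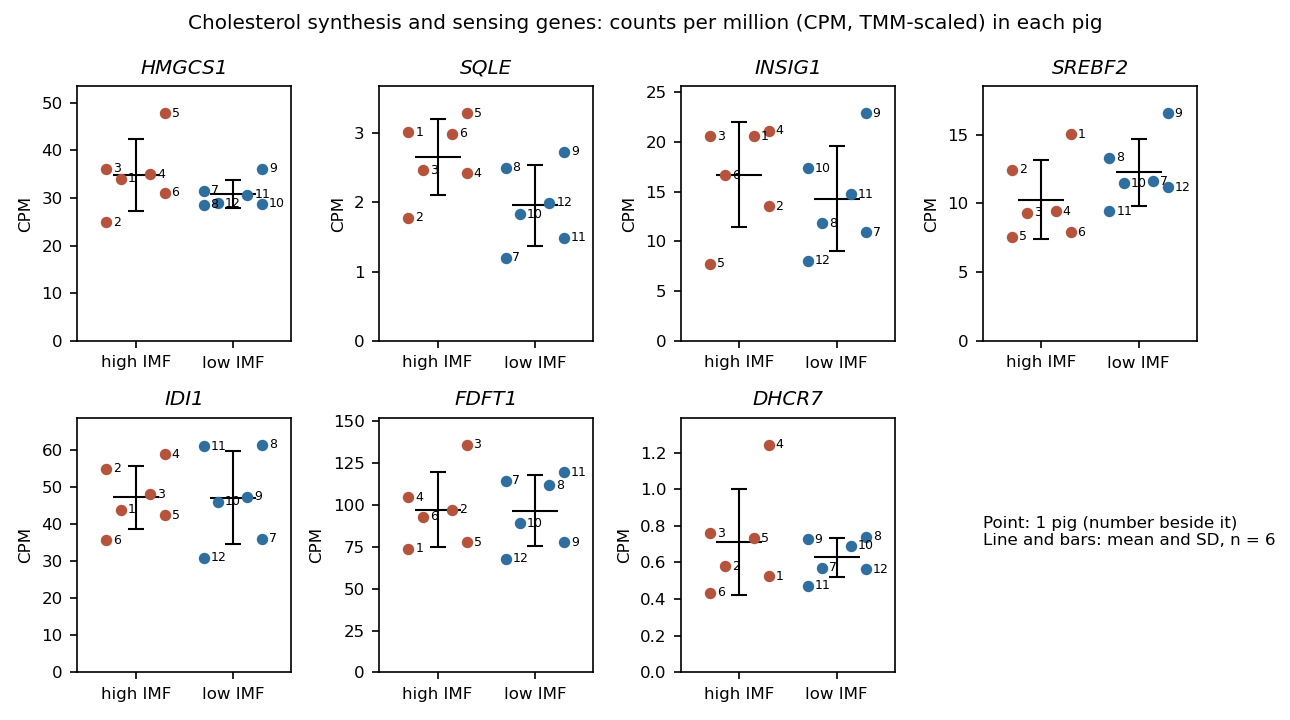
CPM of the 7 genes with counts in each pig, with the group mean and SD (n = 6 each) and the pig's number beside its point. The groups overlap in all 7 panels: in SQLE pigs 1, 5 and 6 lie above the low IMF pigs, and in SREBF2 pigs 3 to 6 lie below them.

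Without the 6 pigs whose Y chromosome counts went against the label, 4 high and 2 low IMF pigs were left, and 0 of 7 genes passed at an unadjusted p of 0.05, against 4.05% of all genes tested in that smaller set. The log2 fold change was then -0.54 for SQLE, -0.65 for INSIG1, -0.42 for DHCR7, -0.07 for IDI1 and -0.06 for HMGCS1. That of SREBF2 turned from 0.25 to -0.11, and that of FDFT1 from -0.01 to 0.03. Each of the 7 adjusted p values in that smaller fit was 0.998.

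The rest of the pathway was read through 6 lists of 56 genes, of which 50 were tested and 8, or 16%, had an unadjusted p of 0.05 or less, beside 10.4% of all genes tested. None of the 8 passed after adjustment by edgeR: 5 were higher in low and 3 in high IMF pigs. The 50 had a median log2 fold change of -0.01. PMVK, FNTA, MBTPS2, ERLIN1 and LRP1 were not matched to an identifier, and 1 did not pass the filter.

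In the mevalonate list, ACAT2, which supplies acetoacetyl-CoA to HMGCS1, passed at the unadjusted level, with 6.61 ± 2.41 CPM in high and 4.58 ± 1.34 CPM in low IMF pigs (log2 fold change -0.53, SE 0.24, exact permutation p = 0.0844, adjusted p = 0.470 by edgeR). With 1 pig left out, ACAT2 kept an unadjusted p of 0.05 or less in 5 of 12 fits. It was thus not among the 4.43% of all genes tested that kept it in all 12, and its log2 fold change was -0.32 without pig 6. ACAT2 overlaps TCP1 on the opposite strand over 94 bases, and whether the counting used the strand is not given in the sources used here.

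Among the post-squalene genes that passed at the unadjusted level was MSMO1, the C4-methylsterol oxidase. It ranged from 6.01 to 7.18 CPM in high and from 2.46 to 5.6 CPM in low IMF pigs. Its groups did not overlap, as was the case for 0.659% of all genes tested. The exact permutation test given below restates this separation and is not a second line of evidence. The log2 fold change was -0.50 (SE 0.16, p = 0.00913, adjusted p = 0.422 by edgeR), and the two-sided exact permutation p of 0.00216 is the smallest that 6 against 6 pigs can give.

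MBTPS1, the site-1 protease that makes the first cut in SREBP in the Golgi, was the one gene of 11 in the SREBP processing list to pass at the unadjusted level. That was 9.09% of the list, beside 10.4% of all genes tested. MBTPS1 ranged from 24.2 to 33.4 CPM in high and from 34.5 to 39.8 CPM in low IMF pigs. Its groups thus did not overlap either, as in 0.659% of all genes tested. Its log2 fold change was 0.38 (SE 0.09, 95% interval 0.19 to 0.56, p = 0.000717, adjusted p = 0.276 by edgeR), with the same exact permutation p of 0.00216. DESeq2's Wald test gave it an adjusted p of 0.00887 on the same genes, with a fold change under the threshold for a call.

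In the isoprenoid branch, 1 of 8 genes passed at the unadjusted level, or 12.5%, beside 10.4% of all genes tested. This was FNTB, the beta subunit of protein farnesyltransferase, at 18.6 ± 2.81 CPM in high and 29.9 ± 8.68 CPM in low IMF pigs (0.68, SE 0.18, exact permutation p = 0.00649, adjusted p = 0.345 by edgeR). It was the only gene of the 50 called by DESeq2's Wald test on the same genes (adjusted p = 0.0448), and was not called when all genes with a count entered that test (adjusted p = 0.0505), where 0.32% of genes were. Of the 9 efflux and storage genes, CYP27A1, the sterol 27-hydroxylase, was 8.45 ± 2.73 against 13.2 ± 5.46 CPM (0.64, SE 0.27, exact permutation p = 0.0606), and NR1H2, the sterol receptor LXR beta, 21.0 ± 2.26 against 24.4 ± 1.49 CPM (0.21, SE 0.09, exact permutation p = 0.0130), both with an adjusted p of 0.441 by edgeR. With 1 pig left out, each kept an unadjusted p of 0.05 or less in 7 of 12 fits, and CYP27A1 was at 0.42 without pig 7.

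None of the 8 uptake and transport genes tested passed at the unadjusted level, beside 10.4% of all genes tested. Among the largest differences were those of the sterol carrier STARD4, at -0.44 (SE 0.24, exact permutation p = 0.0823, adjusted p = 0.535 by edgeR), and the lysosomal cholesterol exporter NPC1, at 0.30 (SE 0.20, exact permutation p = 0.186, adjusted p = 0.621 by edgeR).

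**Figure D3:**
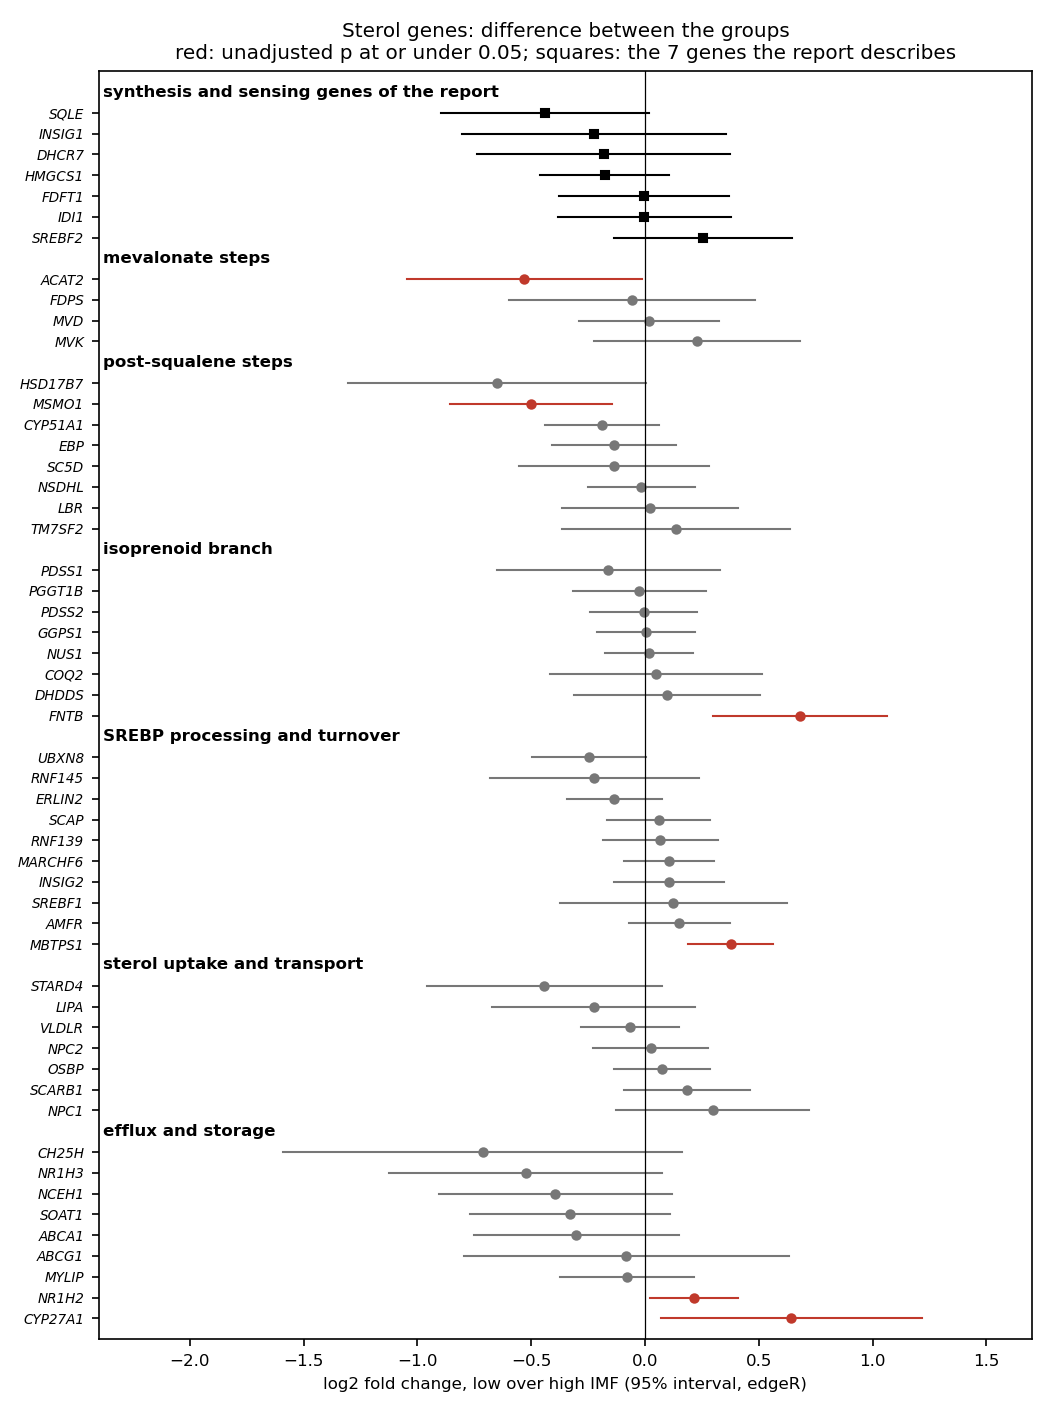
Log2 fold change, low over high IMF, with its 95% interval by edgeR, for the 7 genes (squares) and 46 genes of the 6 pathway lists (circles). The intervals of all 7 squares include 0, and the 6 genes in red had an unadjusted p of 0.05 or less.

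The second question was whether the 7 genes rose and fell together from pig to pig. Over the 12 pigs, 0 of the 21 pairs passed in a permutation test of Pearson's r of log2 CPM after adjustment over the pairs, and 0 of 21 at an unadjusted p of 0.05. Of the 21 coefficients, 12 were positive, and the median was 0.152. Spearman's rho gave 1 pair at an unadjusted p of 0.05 and 0 after adjustment.

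The highest coefficient was that of HMGCS1 with SQLE, at r = 0.559 (permutation p = 0.0589, adjusted p = 0.775) and rho = 0.517 (permutation p = 0.0879, adjusted p = 0.661). Pig 5 was the highest of the 12 in both genes, and r was 0.388 without the 2 pigs farthest from the median of HMGCS1, pigs 2 and 5. IDI1 with FDFT1 followed, at r = 0.510 (permutation p = 0.0900, adjusted p = 0.775) and rho = 0.587 (permutation p = 0.0490, adjusted p = 0.661), with pig 12 the lowest in both, and r was 0.261 without pigs 8 and 12. SQLE and FDFT1, consecutive enzymes, had the most negative coefficient, r = -0.410 (permutation p = 0.185, adjusted p = 0.775), which was -0.127 without pigs 7 and 11.

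HMGCS1 and INSIG1 showed no relation that passed the test over all pigs (r = -0.025, permutation p = 0.938, rho = 0.308, permutation p = 0.332), and this value rested on 1 pig. Pig 5 had the highest HMGCS1 and the lowest INSIG1 of the 12, and without it r was 0.663. Of the 12 pigs, it was the one whose removal raised r most, and without it 0 of the 21 pairs passed after adjustment. Without pigs 2 and 5, the 2 farthest from the median of HMGCS1, r was 0.762. Within the groups, r was -0.422 in high IMF pigs (exact permutation p = 0.364) and 0.644 in low IMF pigs (exact permutation p = 0.175). Pig 5 was one of those whose Y chromosome counts went against the label. SREBF2 passed the test with none of the other 6 genes, with r from -0.356 (HMGCS1) to 0.304 (INSIG1) and adjusted permutation p of 0.775 or more.

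With each gene centred on its group mean, r was 0.473 for HMGCS1 and SQLE and 0.510 for IDI1 and FDFT1. Within the groups, 10 of 21 coefficients were positive among the 6 high IMF pigs and 17 of 21 among the 6 low IMF pigs, with medians of -0.173 and 0.265. Of these 42 coefficients, 1 had an unadjusted exact permutation p under 0.05 (SREBF2 with DHCR7 in low IMF pigs, r = 0.826, p = 0.0431) and 0 passed after adjustment (smallest adjusted p = 0.807). The difference between the groups was not tested. Pig 12 was below the mean of the 12 pigs in 6 of the 7 genes, and pigs 3, 4 and 9 were above it in 6 of 7.

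**Figure D4:**
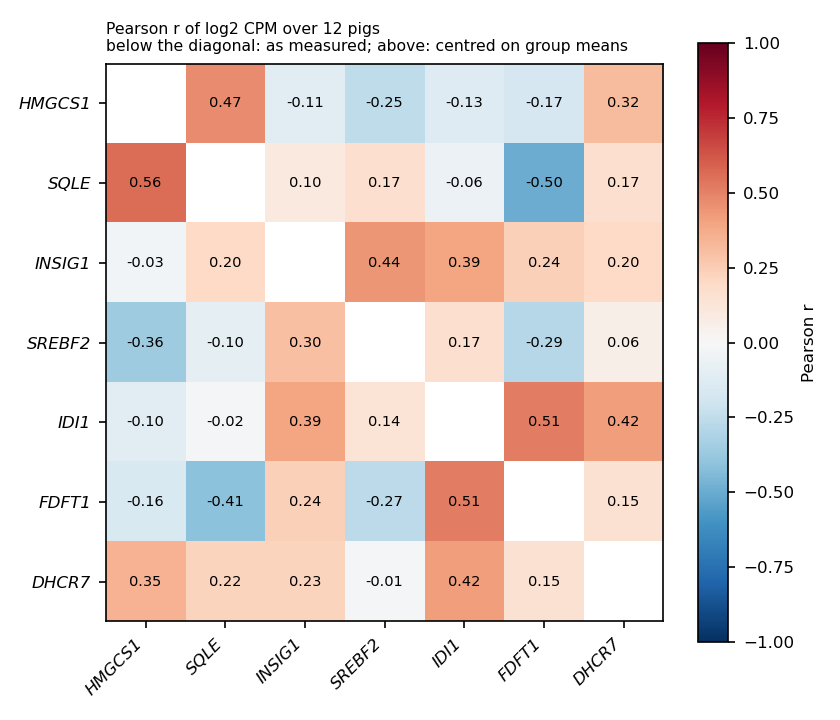
Pearson's r of log2 CPM for the 21 pairs over 12 pigs, as measured below the diagonal and centred on the group means above it. HMGCS1 with SQLE (0.56) and IDI1 with FDFT1 (0.51) are the highest as measured and SQLE with FDFT1 (-0.41) is the lowest, and none passed the test.

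Among the pathway genes, SQLE had the most with a similar course over the pigs: 10 of the 50 reached r = 0.5 with it, or 20%, where 9.03% of all genes tested did. Among them were ACAT2 (r = 0.814, 27th of 14261 genes by r), EBP (0.703), MSMO1 (0.660), STARD4 (0.575), HSD17B7 (0.575), SC5D (0.557), PGGT1B (0.552) and CYP51A1 (0.549). Of those named, all but PGGT1B, a prenyltransferase subunit, are enzymes of sterol synthesis or, in the case of STARD4, a sterol carrier. These coefficients over 12 pigs are descriptions from shared libraries and carry no test.

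The other 6 genes had fewer or looser partners in the lists. IDI1 reached r = 0.5 with 6 of 50 (5.36% of all genes), led by OSBP, a sterol transfer protein (0.778), and VLDLR (0.678). FDFT1 did so with 5 (7.33% of all genes), led by the ubiquitin ligase gene MARCHF6 (0.71). INSIG1 did so with 4 (5.80% of all genes), among them FDPS (0.655) and its paralogue INSIG2 (0.614). HMGCS1 did so with 2 (4.41%), ABCG1 (0.606) and EBP (0.559), and DHCR7 with 1 (3.17%), ERLIN2 (0.577). SREBF2 did so with 3 although 13.7% of all genes reached that value with it: NR1H2 (0.772), MBTPS1 (0.527) and TM7SF2 (0.526). It ran opposite to NCEH1, a cholesteryl ester hydrolase (-0.941), and UBXN8 (-0.888).

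Of all genes with a symbol, those with the course most like that of each gene, by Pearson's r over 12 pigs, came from outside the lists. They were CPSF2 (0.822), NBEA (0.816) and NEK1 (0.809) for HMGCS1, CCSAP (0.901), CTDSP2 (0.900) and TFDP1 (0.891) for IDI1, and CHRAC1 (0.894), PMS1 (0.893) and ABHD14A (0.888) for FDFT1. For SQLE they included BRWD3 (0.912) and LUZP1 (0.882), and for DHCR7 C15orf62 (0.852), FAM216A (0.824) and PCYT1A (0.760). For SREBF2 they were DCP1B (0.941), SLC35A2 (0.930) and COL18A1 (0.907), and for INSIG1 RNF11 (0.915), RNF41 (0.878) and POLR1F (0.869). They are the highest of 14261 coefficients each and are given with no test.

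Muscle tissue holds fat, vessel, connective tissue and immune cells beside fibres, and in such bulk RNA fewer cells of a type cannot be told apart from less RNA per cell. Each gene was therefore set against 6 marker lists, 42 relations in all. One passed: SQLE fell as the summed CPM of the muscle fibre markers ACTA1, CKM, DES and MYOT rose, with r = -0.857 (permutation p = 0.00032, adjusted p = 0.0134). This marker sum ran from 26366 to 38699 CPM in high IMF pigs (median 29200) and from 27339 to 52288 CPM in low IMF pigs (median 33873), with no difference between the groups beyond their spread (exact permutation p = 0.173). Most of the sum was ACTA1, with means of 17671 CPM in high and 21662 CPM in low IMF pigs. CKM came next, at 8648 and 9841 CPM. The sum therefore describes ACTA1 and CKM above all, and relations to single fibre markers were not tested. Pig 7 had the highest marker sum and the lowest SQLE, and r was -0.754 (permutation p = 0.00845, adjusted p = 0.355) without it and -0.714 without the 2 farthest, pigs 2 and 7. The relation did not pass by rank, with rho = -0.727 (permutation p = 0.00911, adjusted p = 0.191), nor after centring on the group means, where r was -0.826 (permutation p = 0.00319, adjusted p = 0.134). The part of the fibre markers in the difference of SQLE between the groups was not tested.

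**Figure D5:**
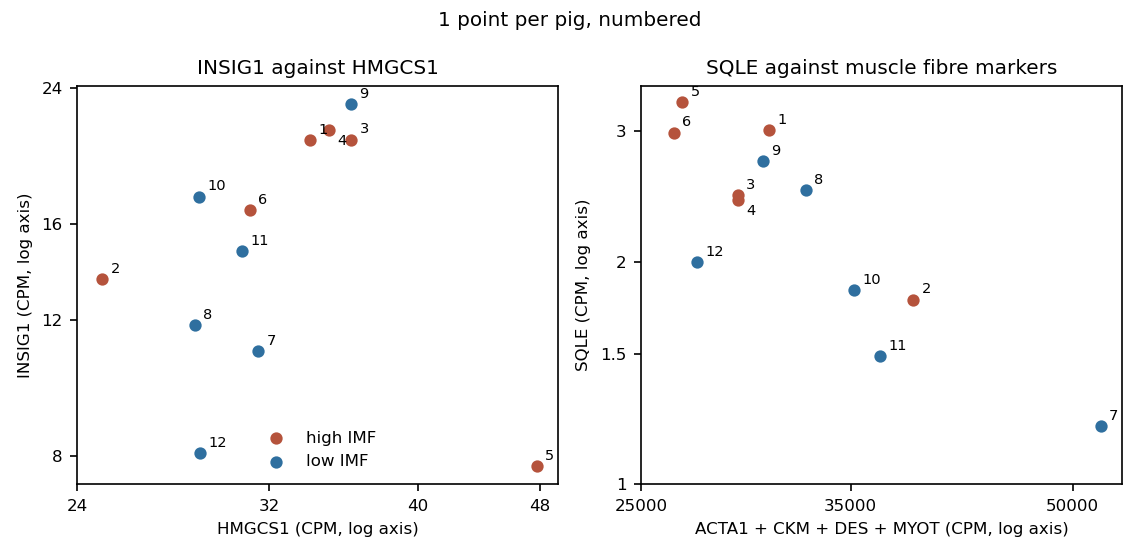
INSIG1 against HMGCS1, and SQLE against the summed CPM of 4 muscle fibre markers, 1 numbered point per pig on log axes. Pig 5 lies apart at the lower right of the first panel, and r without it was 0.663. In the second, SQLE falls with the marker sum over both groups (r = -0.857).

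The adipocyte markers did not separate the groups, although the groups were chosen on fat. The summed CPM of the 8 markers, from ADIPOQ to LIPE, ran from 287 to 400 CPM in high IMF pigs (median 363) and from 155 to 583 CPM in low IMF pigs (median 389), with an exact permutation p of 0.950, and 0 of the 8 genes passed at an unadjusted p of 0.05 (LEP, the leptin gene, was at 0 in some pig). Most of the sum was PLIN4, with means of 254 CPM in high and 283 CPM in low IMF pigs. ADIPOQ came next, at 45.3 and 40.8 CPM. What is said of this sum therefore describes PLIN4 above all, and relations to single markers were not tested. Which cells of the muscle the PLIN4 counts came from was not tested either, so the sum was not read as adipocyte content. INSIG1 was lower where this sum was higher, with rho = -0.741 (permutation p = 0.00797, adjusted p = 0.191), r = -0.482 (permutation p = 0.112, adjusted p = 0.525) and r = -0.807 without pigs 8 and 10, the 2 farthest. SREBF2 and the slow fibre markers had r = -0.578 (permutation p = 0.0501, adjusted p = 0.421), and -0.845 without pigs 7 and 12. The sums of the 7 macrophage, 4 endothelial, 6 fibro-adipogenic and 5 slow fibre markers with counts did not differ between the groups beyond their spread either (exact permutation p of 0.872, 0.169, 0.232 and 0.522). The other relations, with macrophage, endothelial and fibro-adipogenic markers included, had adjusted p of 0.421 or more by Pearson's r.

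Library features moved with 2 of the genes without passing the test. SREBF2 was lower in libraries with a larger share of counts on their single most abundant gene, with r = -0.747 (permutation p = 0.00517, adjusted p = 0.109 over 21 relations) and rho = -0.720 (permutation p = 0.0103, adjusted p = 0.216), and r was -0.546 without pigs 6 and 9. For IDI1 the values were r = -0.626 (permutation p = 0.0297, adjusted p = 0.312) and rho = -0.664 (permutation p = 0.0220, adjusted p = 0.231), and -0.641 without the same pigs. The share ran from 9.71% to 16.7% of all counts, and its part in the levels of both genes was not tested.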

How the data were processed

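Per the study's methods, stranded mRNA libraries were read in pairs, trimmed with Trimmomatic, aligned to Sscrofa11.1 with HISAT2 and counted per gene with HTSeq; the strand setting is not given in the sources used here. The deposited values are raw counts per Ensembl gene, with no normalization by the authors. Groups follow the labels. Symbols were paired with identifiers through gene name tables (14857 of 25880 genes), and positions, exon lengths and upstream windows come from RefSeq on Sscrofa11.1. The 8 genes, the lists and the tests were chosen with earlier results of these data known.

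Counts were scaled by TMM and filtered with filterByExpr in edgeR 4.0.16 (R 4.3.3), and a quasi-likelihood test with the group alone compared low with high IMF over 14262 genes, adjusted by Benjamini-Hochberg. DESeq2 1.42.0 and limma 3.58.1 gave alternatives. A gene was called at an adjusted p of 0.05 and an absolute log2 fold change of 0.58. Single genes were also compared by a two-sided exact permutation test over all arrangements of the 12 pigs. Correlations used log2 CPM with a prior count of 2 and 100000 resamples, adjusted over 21 pairs or 42 relations. Depth ranged from 131048805 to 178013997 counts per pig. The fit was tested on simulated data. The genes named are the 8, the genes of each list at an unadjusted p of 0.05 (or the 3 with the largest difference), and the 3 most similar genes of each. Members of the cell type lists were fixed by name: TTN, MB, VWF, CLDN5 and MYH7 had no counts matched to their symbol. Some of the genes that this rule selects are not reported here, though counts over a list include them.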

Additional observations from a re-analysis of the deposited data

How the results depend on the processing

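The 22 alternatives were other normalizations, tests, filters, covariates and sets of pigs; those for the marker and pathway lists were chosen after seeing the data. No alternative gave any of the 7 genes an adjusted p under 0.289, and 0 of the 21 pairs passed under the 18 run for the pairs. The number of genes called over all genes was 0 in the edgeR test, 58 in DESeq2's Wald test on the same genes, 65 on all genes with a count, and 0 to 1 with each pig left out: BSDC1 without pig 5, and a gene with no symbol without pig 10. SQLE kept its direction under all 22, from -0.60 (age as a covariate) to -0.33 (without pig 7), as did HMGCS1 (-0.26 to -0.06) and INSIG1 (-0.65 to -0.09). For SQLE the unadjusted p by edgeR was 0.05 or less in 4. These were the fit with age as a covariate, where 9.79% of all genes tested had such a p, and those without pig 2 (14.3%), 8 (8.27%) or 9 (8.51%). HMGCS1 had such a p in 1, without pig 2, and INSIG1 in none.

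The directions of IDI1 and FDFT1, whose log2 fold changes were near 0, depended on the setting, and the cause was not tested. IDI1 turned to 0.00083 with DESeq2 size factors, 0.00083 and 0.0011 in DESeq2's Wald test on the same and on all genes, and ranged from -0.0950 to 0.0995 with each pig left out. FDFT1 turned to 0.0609 with age as a covariate, to 0.0295 without the 6 pigs whose Y chromosome counts went against the label, and ranged from -0.0789 to 0.114 with each pig left out. SREBF2 turned to -0.11 without those 6 pigs, and DHCR7 ranged from -0.290 to 0.0485 with each pig left out.

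The relation of SQLE to the muscle fibre markers was the 1 of 42 that passed, and also with DESeq2 size factors (adjusted p = 0.0122) and upper-quartile scaling (0.0160). By rank, after centring on group means and without the 6 pigs, 0 passed. With each pig left out, 0 to 1 passed, r of that relation lying between -0.925 and -0.754; the adjusted p was over 0.05 without pig 2 (0.0529), 5 (0.0533), 7 (0.355), 10 (0.0563) or 11 (0.0748). The number of pathway genes at an unadjusted p of 0.05 was 8, and ranged from 3 (without pig 6) to 10 (without pig 10) with each pig left out. Without pig 6 that was 6% of the 50, under the 7.26% of all genes tested. Without pig 10 it was 20%, against 10.1% of all genes tested. No paired analysis was possible because the labels pair no high IMF pig with a low IMF pig. LSS was at 0 in all pigs, as were the other 7 genes of its scaffold with an identifier, and these zeros were not read as a level.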

Other observations

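MSMO1 and MBTPS1, the 2 of 50 pathway genes whose groups did not overlap (0.659% of all genes tested), kept an unadjusted p of 0.05 or less by edgeR with each of the 12 pigs left out, with log2 fold changes from -0.56 to -0.37 for MSMO1 and from 0.33 to 0.42 for MBTPS1. FNTB did so as well, from 0.56 to 0.78, which makes 3 of the 50, where 4.43% of all genes tested did. Without the 6 pigs whose Y chromosome counts went against the label, their values were -0.75, 0.41 and 0.81.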
